A study of Danio rerio with 12 samples.

Results

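The comparison described here is that of uninjured mvp-/- zebrafish hearts with uninjured wild-type hearts. It holds the 6 of 12 libraries whose labels gave sham surgery: 3 libraries of the mvp mutant (mvp-sham) and 3 of wild type (WT-sham). The other 6 libraries, 3 from mvp mutants (mvp-7dpa) and 3 from wild type (WT-7dpa), came from ventricles 7 days post amputation (dpa), that is after resection of part of the ventricle, and serve here only as a second look at the same genes. In the sham operation the ventricle was left whole. The sample labels give no number of days after sham surgery, so whether it was alike in both genotypes is not known from them. All fish were adult, with no further age given, and the sample was the ventricle below the plane of surgery. Total RNA was sequenced after preparation with a low-input kit. The mutant is a single CRISPR-Cas9 line on the AB background in which the whole mvp coding region is deleted, so that effects of the deletion and of anything else particular to this line cannot be told apart. The methods give a number of hearts but not how they were divided among the libraries, so p-values measure the spread between these libraries, which may be technical.

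The vault is a large barrel-shaped ribonucleoprotein particle of the cytoplasm whose shell is built from many copies of the major vault protein, Mvp. Inside the shell are the telomerase-associated protein Tep1, the poly(ADP-ribose) polymerase Parp4 and small untranslated vault RNAs. Vaults occur in most vertebrate cells, and in mammalian cells Mvp has been linked to drug resistance, nuclear transport and signalling by kinases and phosphatases. In zebrafish hearts, injury sets off dedifferentiation and division of cardiomyocytes together with responses of the endocardium, epicardium and immune cells, while the sham-operated ventricle is meant to represent the resting heart.

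mvp was the check of the labels. It had 4.67, 5.40 and 5.0 CPM (counts scaled to the size of the library) in the mvp-sham libraries, against 179.7, 193 and 182 CPM in the WT-sham libraries. The groups lay far apart, at 5.02 ± 0.370 CPM in mvp-sham and 185 ± 6.93 CPM in WT-sham (mean ± SD, n = 3 each), a log2 fold change of -5.20 (SE 0.14; adjusted p = 1.41e-11, Benjamini-Hochberg adjusted, from edgeR's quasi-likelihood test). Reads assigned to mvp were therefore few but not at 0 in the mutant, and where in the gene they lay was not examined. Of the other vault proteins, parp4 fell, with 7.69, 8.44 and 8.60 CPM in mvp-sham and 10.6, 10.6 and 11.6 CPM in WT-sham, a log2 fold change of -0.41 (SE 0.14; edgeR adjusted p = 0.0249). The groups did not overlap for parp4, which held for 62.7% of all genes tested. Its call was lost without WT-sham replicate 3 (edgeR adjusted p = 0.0795), mvp-sham replicate 1 (0.0893) or mvp-sham replicate 2 (0.0544), and in a test against a 1.5-fold change. tep1 had 6.51, 5.76 and 6.15 CPM in mvp-sham and 8.70, 7.42 and 6.38 CPM in WT-sham, a log2 fold change of -0.29 (SE 0.15) that did not pass (edgeR adjusted p = 0.129).

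The 6 libraries were of even depth, within the range of 21356163 to 26684651 counts over all 12, so that 3 counts amounted to between 0.132 and 0.161 CPM in the sham libraries once scaled. This floor, used below where a gene had at most 3 counts in every library of a group, covers counting error only. The biological coefficient of variation (the spread between replicates beyond counting) was 4.77% in mvp-sham and 7.86% in WT-sham. It was 5.22% in mvp-7dpa and 26.6% in WT-7dpa, where replicate 1 stood apart from the other libraries of its group. The 20 genes with the most counts took 44.8 to 45.5% of each mvp-sham library and 50.6 to 51.6% of each WT-sham library. Genes of the mitochondrial genome took 10.3 to 10.6% in mvp-sham and 14.6 to 15.1% in WT-sham. They took 10.5 to 10.6% in mvp-7dpa and 13.5, 10.8 and 10.7% in WT-7dpa replicates 1, 2 and 3.

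Of 16604 genes tested, 8214 (49.5%) were called between mvp-sham and WT-sham hearts at an adjusted p under 0.05. Of these, 4201 (25.3%) were higher in mvp-sham and 4013 (24.2%) were lower. A change of at least 2-fold was called for 3667 genes (22.1%), of which 2017 (12.1%) were higher and 1650 (9.94%) lower. In 10411 genes (62.7%) the mvp-sham and WT-sham libraries did not overlap. The median log2 fold change over all genes tested was -0.00. Counts of called genes given below for a list of genes are to be read against these shares, since about every second gene was called. With a test against a 1.5-fold change in place of no change, 1974 genes were higher and 1596 lower in mvp-sham.

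A search added after the values had been seen asked which genes were shut in a single group. At a threshold of at most 3 counts in all 3 libraries of a group and at least 5 CPM in each of the other 9 libraries, 7 genes were found for WT-sham, 0 for mvp-sham, 0 for WT-7dpa and 1 for mvp-7dpa. The 7 genes were morn2, lipg, cremb, si:ch211-209l18.4 and 3 MHC class II genes, mhc2dga, mhc2dgb and mhc2dhb. si:ch211-209l18.4, for example, had 10.9, 11.2 and 9.30 CPM in mvp-sham and 0, 0.0439 and 0 CPM in WT-sham. Genes at 5 CPM or more in 1 group and at the floor in the other 9 libraries numbered 0 in each of the 4 groups. That the WT-sham libraries stood apart from the rest of the series for these 7 genes follows from the rule of the search. The rule was the same for each group, but the search used the values of the sham comparison itself. Of the 7 genes, 3 were class II genes, so the 7 are not separate observations. The counts of 7 for WT-sham and 0 for mvp-sham are given as a description only. What set the WT-sham libraries apart was not tested. WT-7dpa values are therefore given below beside some of the largest differences, as levels only.

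The largest rises began with these near-absent genes. morn2 had 13, 13.8 and 12.7 CPM in mvp-sham and no count in the 3 WT-sham libraries, at least 88.5-fold higher against the floor of 3 counts per library, while the WT-7dpa libraries had 27.2, 19.1 and 19.1 CPM. lipg, which encodes endothelial lipase, an enzyme acting on high-density lipoprotein, had 22.3, 23.3 and 24.2 CPM in mvp-sham and 0.161, 0 and 0.0515 CPM in WT-sham, at least 156-fold higher, with 5.59, 9.87 and 9.77 CPM in WT-7dpa. cbarp, a regulator of voltage-gated calcium channels in mammals, was at least 43.9-fold higher, and cremb, of the cAMP-responsive CREM family, at least 50.3-fold higher. f13a1 (ENSDARG00000045453), which encodes the chain of coagulation factor XIII that crosslinks fibrin, had 192, 197 and 201 CPM in mvp-sham and 0.161, 0.132 and 0.309 CPM in WT-sham (log2 fold change 9.92, SE 0.72; edgeR adjusted p = 1.54e-07), with 776, 205 and 200.4 CPM in WT-7dpa. A second gene of that symbol (ENSDARG00000094832) was at least 30.9-fold higher. Each of these genes was high in all 3 mvp-sham libraries and near 0 in all 3 WT-sham libraries.

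Most other large rises were of genes that were low but present in WT-sham. atf3, a stress-induced transcription factor, had 565, 566 and 550.4 CPM in mvp-sham and 3.28, 3.43 and 2.78 CPM in WT-sham, a log2 fold change of 7.46 (SE 0.09; edgeR adjusted p = 6.7e-15). hspa1b, an inducible Hsp70, had 649.9, 659.8 and 665 CPM in mvp-sham and 4.73, 5.23 and 4.27 CPM in WT-sham (log2 fold change 7.11, SE 0.14). otud1, a deubiquitinase, had 592, 601 and 621 CPM in mvp-sham and 5.75, 4.09 and 5.35 CPM in WT-sham (6.91, SE 0.11). In WT-7dpa hearts atf3 lay at 198, 195 and 187 CPM, hspa1b at 159, 123 and 115 CPM and otud1 at 162, 155 and 163 CPM, between the levels of the sham groups. ankrd1 (ENSDARG00000075263), a cardiac ankyrin repeat protein induced by load and injury, had 53.6, 53.5 and 54.3 CPM in mvp-sham and 0.430, 0.659 and 1.03 CPM in WT-sham (6.24), and nr4a3, an orphan nuclear receptor, had 91.4, 93.5 and 95.5 CPM against 1.66, 1.58 and 1.44 CPM in WT-sham (5.90, SE 0.13). Near the floor again, notum2, of the Notum family of carboxylesterases, had 13.8, 13.3 and 13.5 CPM in mvp-sham and 0, 0.220 and 0.257 CPM in WT-sham. itga2.3, of the integrin alpha family, had 7.39, 6.26 and 5.60 CPM in mvp-sham and 0.107, 0 and 0.154 CPM in WT-sham, at least 43.0-fold higher.

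**Figure D1:**
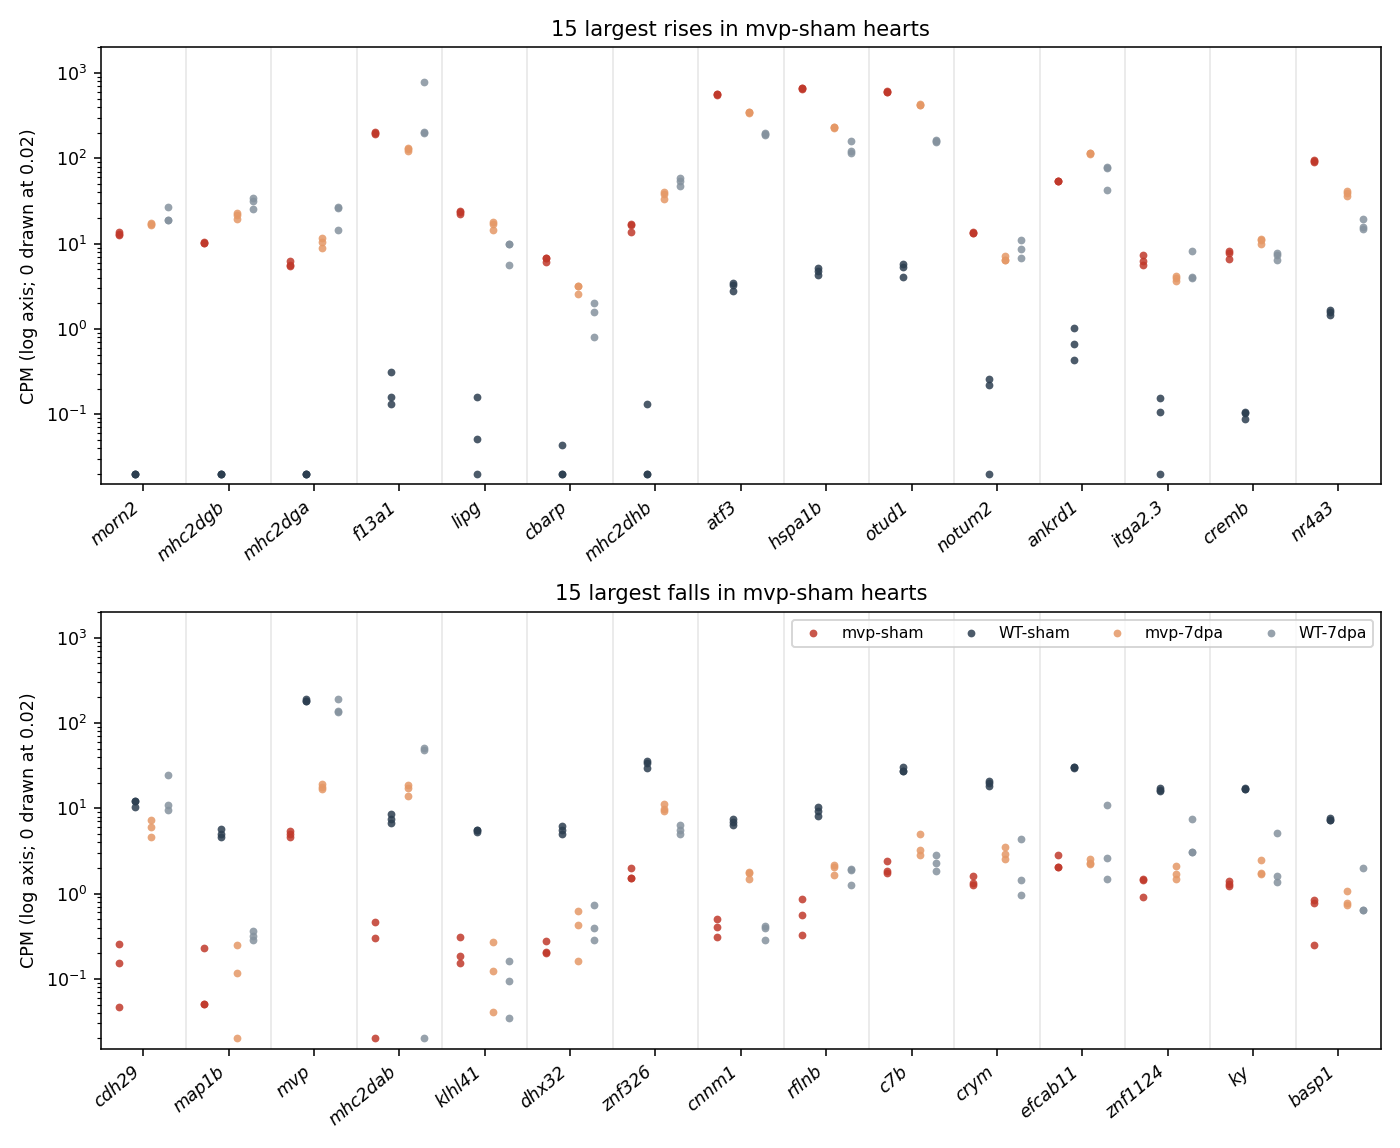
The 15 genes with the largest rise (upper panel) and the 15 with the largest fall (lower panel) in mvp-sham hearts, in CPM on a log axis with 0 drawn at 0.02; each point is 1 library and colours mark the 4 groups. For morn2, mhc2dga and mhc2dgb the mvp-sham points lie above 5 CPM while the WT-sham points lie at 0, and for atf3 the mvp-sham points lie between 550.4 and 566 CPM.

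The largest falls besides mvp itself were of less abundant genes. cdh29, a cadherin, had 0.256, 0.152 and 0.0463 CPM in mvp-sham and 12.3, 12.1 and 10.2 CPM in WT-sham, a log2 fold change of -6.24 (SE 0.53; edgeR adjusted p = 6.92e-07), and the WT-7dpa libraries had 24.5, 9.63 and 10.9 CPM. map1b, a microtubule-associated protein best known from neurons, had 0.0513, 0.0505 and 0.231 CPM in mvp-sham and 4.57, 5.05 and 5.77 CPM in WT-sham (-5.42), with 0.314, 0.360 and 0.286 CPM in WT-7dpa. znf326, a zinc finger protein, had 1.54, 1.97 and 1.53 CPM in mvp-sham and 30.0, 35.6 and 33.6 CPM in WT-sham (-4.30, SE 0.15), with 6.36, 5.64 and 4.97 CPM in WT-7dpa. For map1b and znf326 the WT-sham libraries thus stood above both the mvp-sham and the WT-7dpa libraries, while for cdh29 the mvp-sham libraries stood below both. c7b, a component of the membrane attack complex of complement, had 1.74, 2.42 and 1.85 CPM in mvp-sham and 27.2, 30.1 and 27.6 CPM in WT-sham (-3.82, SE 0.22). In WT-7dpa c7b had 1.82, 2.28 and 2.86 CPM.

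Among the remaining falls, klhl41 (ENSDARG00000006757), a Kelch protein of striated muscle, had 0.308, 0.152 and 0.185 CPM in mvp-sham and 5.59, 5.53 and 5.25 CPM in WT-sham (log2 fold change -4.64). In WT-7dpa klhl41 had 0.0349, 0.160 and 0.0955 CPM. ky, a muscle protein whose loss causes kyphoscoliosis in mice, had 1.23, 1.41 and 1.30 CPM in mvp-sham and 16.7, 16.6 and 17.2 CPM in WT-sham (-3.68). cnnm1, of a family linked to magnesium transport, rflnb, which binds filamin, crym, which binds thyroid hormone, efcab11, znf1124, basp1 and dhx32 (ENSDARG00000077461) completed the list, with log2 fold changes between -4.56 for dhx32 and -3.57 for basp1. Mean WT-7dpa and WT-sham levels were 0.473 and 5.55 CPM for dhx32, 0.368 and 6.91 for cnnm1, and 1.71 and 9.24 for rflnb. They were 2.25 and 19.6 CPM for crym, 5.0 and 30.4 for efcab11, and 4.58 and 16.6 for znf1124. For these genes, klhl41 and c7b, the WT-sham libraries stood above both the mvp-sham and the WT-7dpa libraries. mhc2dab, a class II gene, had 0.462, 0.303 and 0 CPM in mvp-sham and 8.59, 7.56 and 6.75 CPM in WT-sham (-4.92, SE 1.61; edgeR adjusted p = 0.0217). Its call was lost without mvp-sham replicate 1, 2 or 3 (adjusted p between 0.0527 and 0.0769).

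Genes were then followed in 76 lists of families, pathways and cell type markers. The called members with the largest changes were named by rule in the main lists, and the others named below were chosen after their values had been seen. Members too low to test are left out of the counts, so that 9 of 19 class II genes, 18 of 26 class I genes, 28 of 57 complement and coagulation genes, 9 of 22 neuron and glia genes and 49 of 83 chemokine genes entered, but 60 of 67 immediate early genes and all 13 macrophage genes did. The shift differed widely between lists. The median log2 fold change of the tested members was 1.87 for immediate early genes, 1.45 for complement and coagulation, 1.35 for macrophages and 0.90 for thrombocytes, against -0.00 for all genes. It was -0.73 for the genes of the mitochondrial genome, -0.35 for ubiquitin ligases of muscle and -0.33 for cardiac transcription factors (-0.20 without WT-sham replicate 3). Large families of steady expression lay near 0, at -0.02 for the 84 cytosolic ribosomal proteins tested and -0.01 for the 96 nuclear genes of the respiratory chain.

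**Figure D2:**
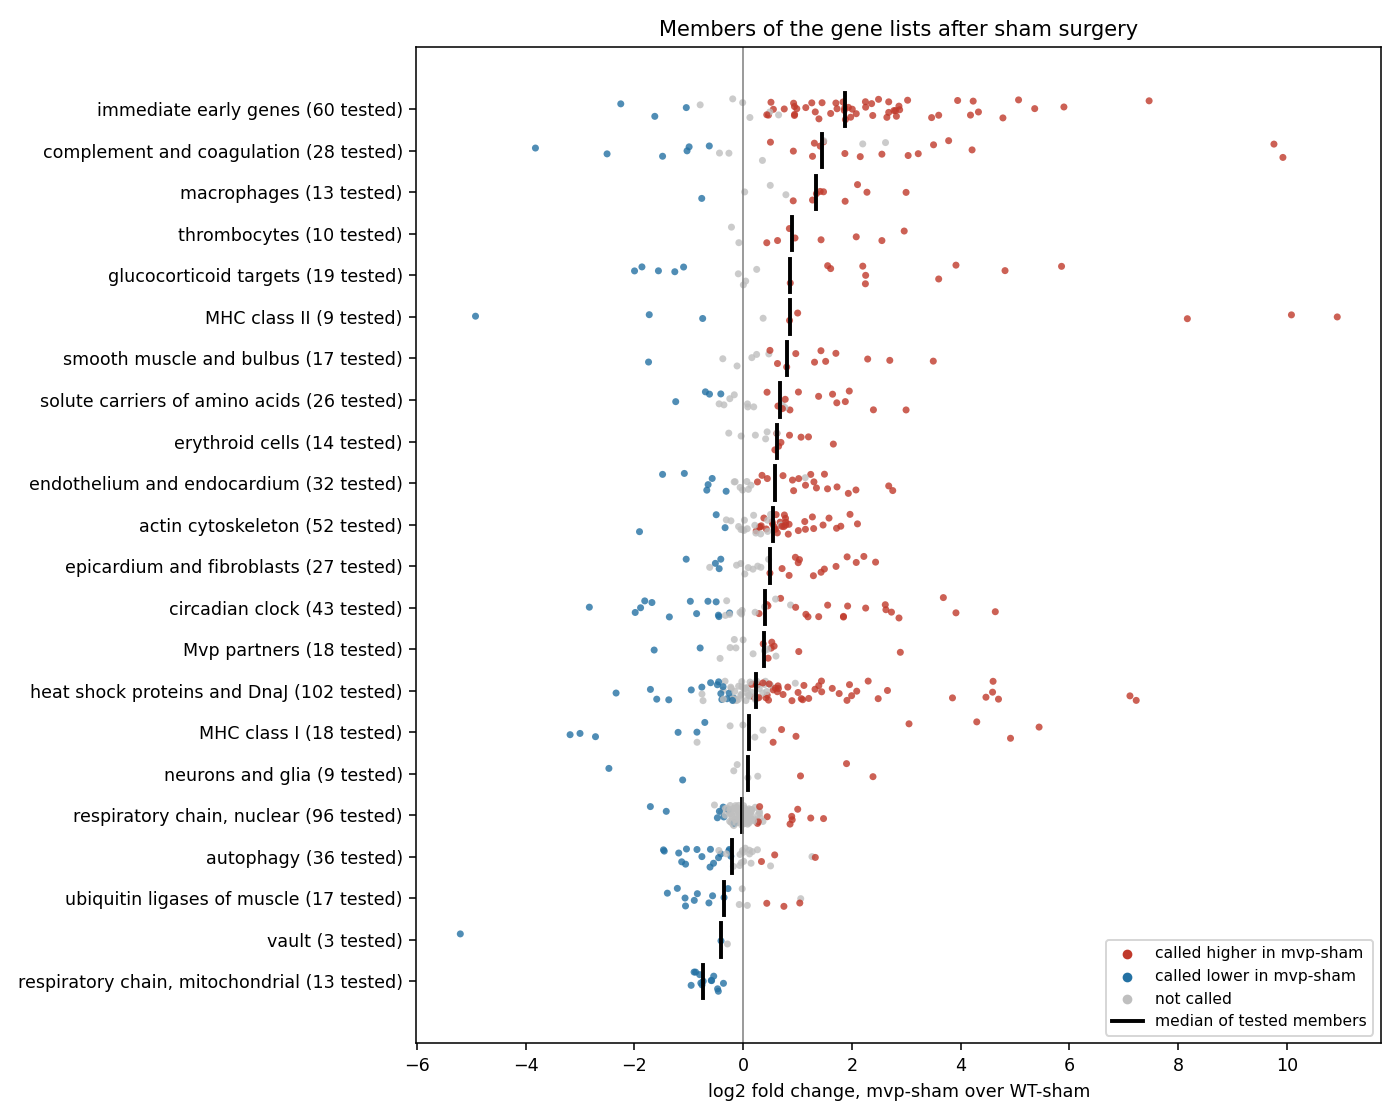
Log2 fold change of mvp-sham over WT-sham (horizontal axis) for each tested member of 22 gene lists, 1 point per gene, coloured by whether it was called higher, called lower or not called, with a black bar at the list's median. Immediate early genes lie mostly to the right, with a median of 1.87, and the 13 mitochondrial genes all lie left of 0.

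Immediate early genes, transcription factors and signalling genes switched on within minutes of a stimulus, were higher in mvp-sham as a group. Of 60 tested, 51 rose and 3 fell, 41 and 3 of them by at least 2-fold. Among the AP-1 and Egr factors 12 of 13 rose and 0 fell. jund had 122, 113 and 105 CPM in mvp-sham and 5.69, 5.23 and 6.02 CPM in WT-sham (log2 fold change 4.33). jun had 254, 265 and 278 CPM in mvp-sham and 44.5, 38.9 and 41.3 CPM in WT-sham (2.68), and junb (ENSDARG00000104773) had 148, 152 and 155 CPM against 20.9, 21.7 and 19.8 CPM in WT-sham (2.86). fosl1, a Fos relative that pairs with Jun, had 8.82, 8.49 and 8.14 CPM in mvp-sham and 0.537, 0.0879 and 0.154 CPM in WT-sham (5.06, SE 0.30). dusp2, a phosphatase that switches off MAP kinases, had 16.2, 14.1 and 15 CPM in mvp-sham and 0.376, 0.264 and 0.463 CPM in WT-sham (5.36, SE 0.15). ccn1, a matricellular protein, averaged 896 ± 4.61 CPM in mvp-sham and 47.8 ± 1.33 CPM in WT-sham (SD, n = 3 each). btg2, an anti-proliferative gene, had 389.9, 381 and 353 CPM in mvp-sham and 22.9, 21.4 and 17.7 CPM in WT-sham (4.18). egr1 was low in both groups, at 5.64, 5.61 and 5.69 CPM in mvp-sham and 0.913, 1.14 and 1.49 CPM in WT-sham (2.25).

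Heat shock proteins and their DnaJ partners, which keep other proteins folded, divided by type. Of 102 tested, 45 rose and 16 fell, 25 and 4 by at least 2-fold, with a median of 0.25. The inducible Hsp70 genes rose most. hsp70.3 had 42.0, 37.4 and 47.1 CPM in mvp-sham and 1.77, 1.89 and 1.54 CPM in WT-sham (log2 fold change 4.60). hspa2 had 246, 251 and 254 CPM in mvp-sham and 9.67, 12.2 and 12 CPM in WT-sham (4.46), and hsp70.1 had 82.0, 84.2 and 95.1 CPM against 5.32, 5.75 and 7.05 CPM in WT-sham (3.85). hsp90aa1.1, the Hsp90 of muscle, had 3216, 3169 and 3225 CPM in mvp-sham and 749, 764 and 746 CPM in WT-sham (2.09), and bag3, a co-chaperone of Hsp70 needed in heart muscle, had 335, 364 and 319 CPM against 61.8, 66.6 and 53.6 CPM in WT-sham (2.48). hsp90ab1, the constitutive Hsp90, had 1468, 1499 and 1509 CPM in mvp-sham and 1348, 1409.8 and 1311 CPM in WT-sham and was not called (0.14; edgeR adjusted p = 0.0839). hspa12b, a distant relative known from endothelium, fell, with a mean of 29.9 CPM in mvp-sham and 97.6 CPM in WT-sham.

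**Figure D3:**
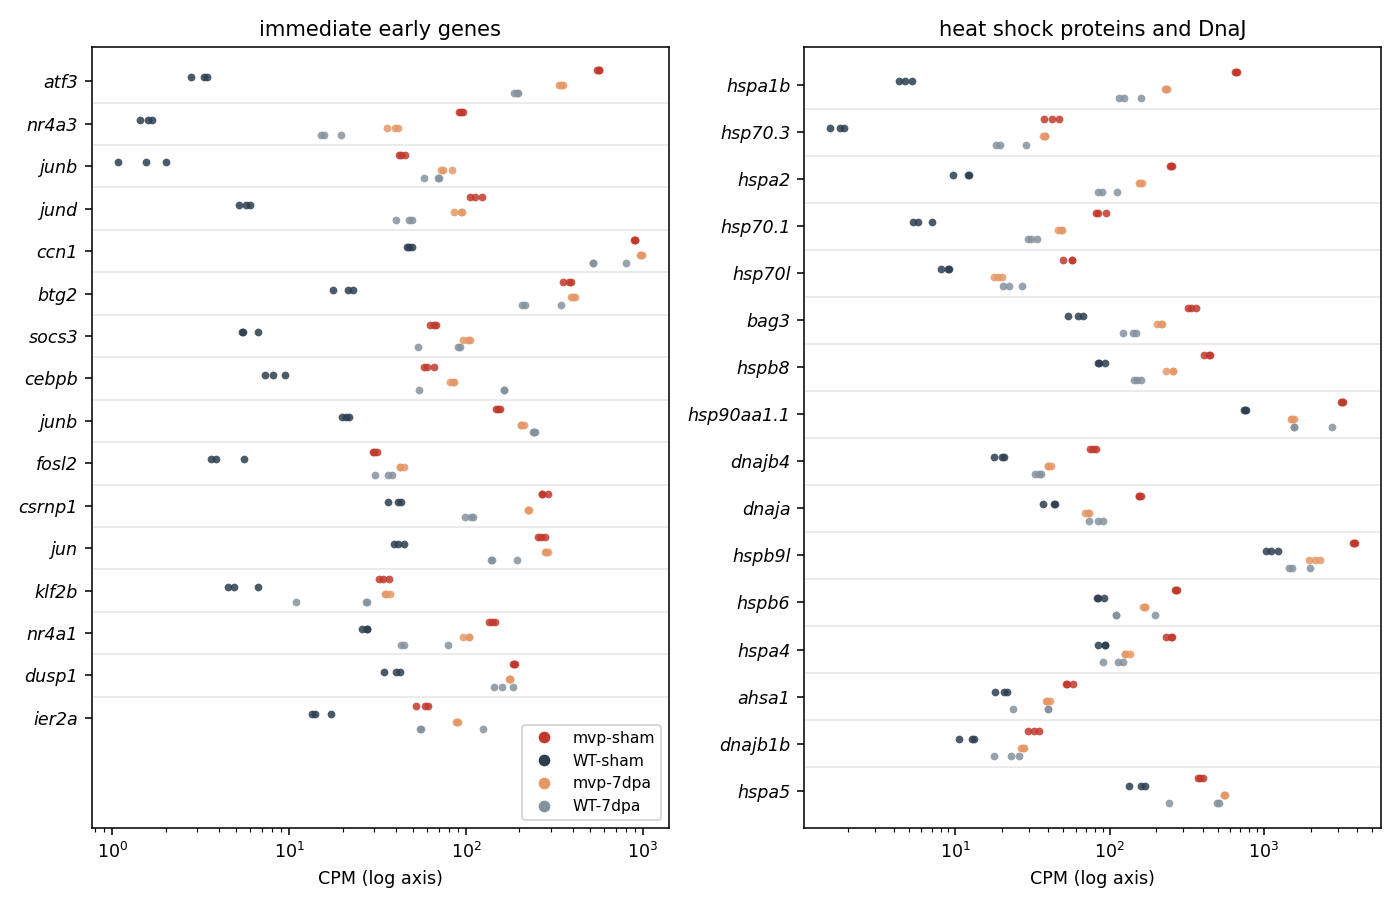
Levels in CPM (log axis) of the 16 immediate early genes (left) and 16 heat shock or DnaJ genes (right) with the largest rise in mvp-sham among those averaging at least 20 CPM in a group; each point is 1 library. The WT-sham points are the lowest of the 4 groups in nearly every row, as for hspa1b at 4.27 to 5.23 CPM, and symbols printed more than once are separate genes.

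The circadian clock runs on a feedback loop in which Clock and Bmal1 drive the genes of their own repressors, the Per, Cry and Nr1d proteins. The negative arm was mainly higher in mvp-sham, with 15 of 23 tested genes up and 6 down and a median log2 fold change of 1.19. In the positive arm and output 5 of 20 rose and 7 fell. nr1d2a had 234, 214 and 219 CPM in mvp-sham and 30.0, 31.5 and 29.9 CPM in WT-sham (2.87, SE 0.13; edgeR adjusted p = 1.53e-09). per2 had 78.9, 72.5 and 76.8 CPM in mvp-sham and 12.4, 11 and 13.7 CPM in WT-sham (2.63). The levels of per2 in WT-7dpa spread widely, at 9.08, 50.0 and 51.2 CPM, with replicate 1 far below the others. per1 (ENSDARG00000056885) had 16.9, 16 and 14.3 CPM in mvp-sham and 1.24, 0.879 and 1.03 CPM in WT-sham (3.91), and nfil3-6 averaged 205 ± 17.2 CPM in mvp-sham and 31.0 ± 2.63 CPM in WT-sham (SD, n = 3 each). bmal1 (ENSDARG00000006791) moved the other way, with 4.36, 5.10 and 4.67 CPM in mvp-sham and 14.8, 17.8 and 16.9 CPM in WT-sham (-1.81), as did clock (ENSDARG00000003631), with 6.31, 6.87 and 6.20 CPM in mvp-sham and 11, 9.0 and 10.4 CPM in WT-sham (-0.65).

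noct, which encodes the rhythmic enzyme nocturnin, was the largest change of the clock list. The gene ENSDARG00000077726 had 42.4, 44.0 and 39.5 CPM in mvp-sham and 1.93, 1.45 and 1.70 CPM in WT-sham (log2 fold change 4.64, SE 0.40; edgeR adjusted p = 7.88e-07). The other noct gene was not called. rorcb, of the Ror receptors that activate bmal1, fell to 0.359, 0.253 and 0.509 CPM in mvp-sham, against 2.09, 2.46 and 3.55 CPM in WT-sham (-2.83). The hour at which hearts were taken is not given in the sources used here.

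**Figure D4:**
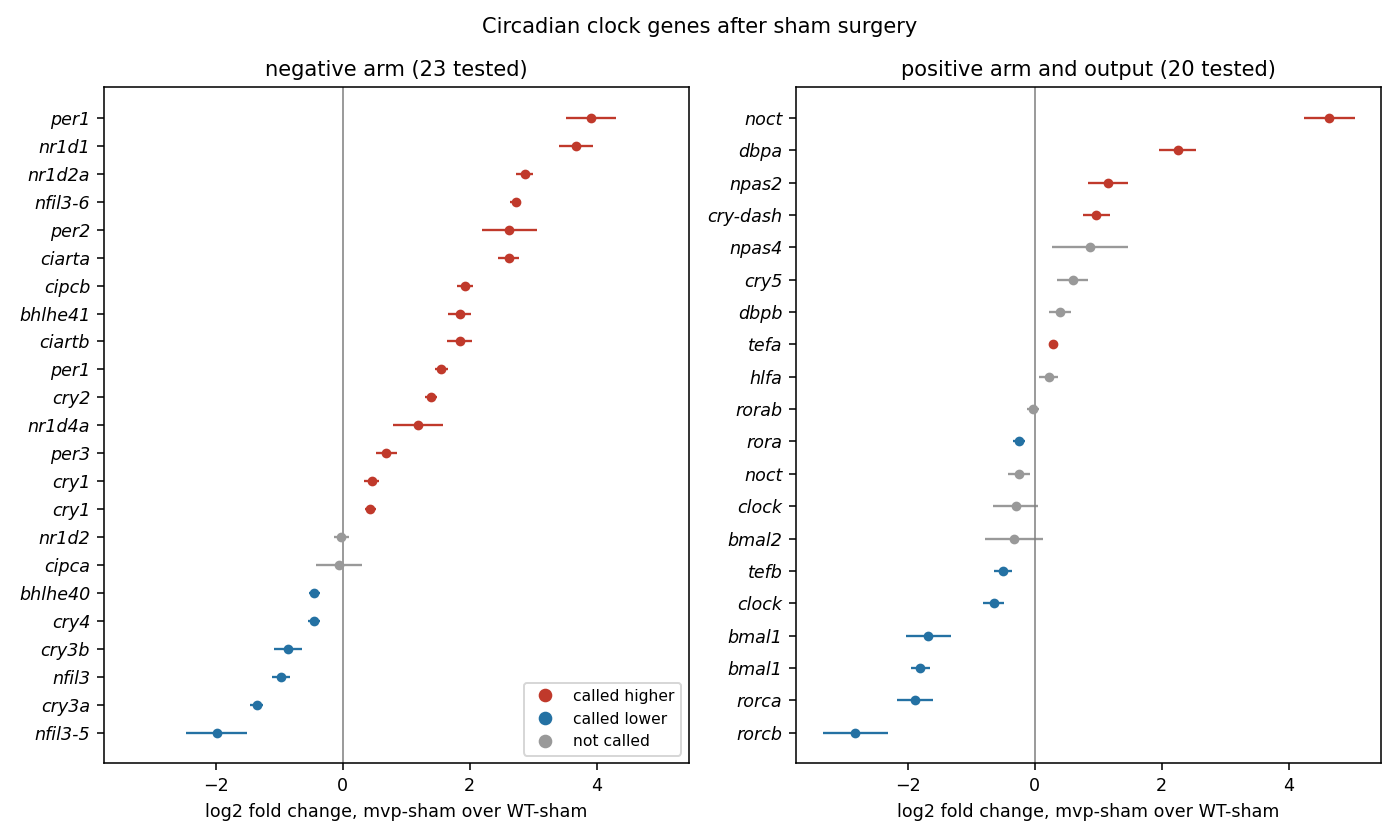
Log2 fold change of mvp-sham over WT-sham for each tested clock gene, with bars of 1 SE, in the negative arm (left, 23 genes) and the positive arm and output (right, 20 genes). per1 (3.91), nr1d1 (3.68) and nr1d2a (2.87) head the left panel, while the bmal1 genes lie at -1.81 and -1.68 in the right panel.

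Targets of the glucocorticoid receptor, through which cortisol acts, also changed in both directions. Of 19 tested, 10 rose and 5 fell. fkbp5, a chaperone that restrains the receptor and is a classical target of it, had 139, 148 and 135 CPM in mvp-sham and 4.30, 4.66 and 6.02 CPM in WT-sham (log2 fold change 4.82, SE 0.19; edgeR adjusted p = 4.96e-10). klf9 had 16.7, 14.4 and 15.1 CPM in mvp-sham and 1.45, 1.05 and 1.34 CPM in WT-sham (3.60), and sgk1, a kinase that regulates ion transport, had 76.7, 85.6 and 85.7 CPM against 17.8, 18.8 and 17.4 CPM in WT-sham (2.20). ddit4, an inhibitor of mTORC1, had 1.38, 1.36 and 1.02 CPM in mvp-sham and 0, 0.0439 and 0 CPM in WT-sham, at least 8.42-fold higher. The receptor gene nr3c1 fell, with 22.9, 22.4 and 22.4 CPM in mvp-sham and 54.2, 56.4 and 51.2 CPM in WT-sham (-1.26).

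MHC class II molecules present peptides on dendritic cells, macrophages and B cells, and zebrafish class II and class I genes vary between fish in which genes a haplotype holds. Of 9 class II genes tested, 5 rose and 3 fell. mhc2dgb had 10.5, 10.3 and 10.3 CPM in mvp-sham and 0 in the 3 WT-sham libraries, at least 69.4-fold higher, and 25.2, 31.3 and 34.4 CPM in WT-7dpa. mhc2dga had 5.59, 5.46 and 6.24 CPM in mvp-sham and 0 in WT-sham (at least 38.6-fold higher), and mhc2dhb had 16.9, 16.6 and 13.6 CPM against 0, 0.132 and 0 CPM in WT-sham (at least 105-fold higher). mhc2dab was the opposite case, being near 0 in mvp-sham as given above, and in WT-7dpa it had 0, 48.9 and 50.9 CPM. cd74a, the invariant chain that guides class II molecules, had 269, 291 and 299 CPM in mvp-sham and 143, 146 and 139 CPM in WT-sham (log2 fold change 1.0). ciita, the master regulator of class II genes, fell to 0.872, 0.960 and 0.740 CPM in mvp-sham, against 2.74, 2.11 and 3.71 CPM in WT-sham (-1.73). The number of class II genes lower in mvp-sham was 1 instead of 3 without any single mvp-sham replicate.

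Class I genes, which present peptides on most cells, behaved likewise in that single genes differed strongly and in both directions. Of 18 tested, 7 rose and 6 fell, with a median log2 fold change of 0.11 that was 0.0 with no filter on low counts. mhc1uba had 308, 311 and 299 CPM in mvp-sham and 6.77, 7.60 and 6.69 CPM in WT-sham (5.44, SE 0.41; edgeR adjusted p = 2.17e-07), and 55.8, 208 and 210.1 CPM in WT-7dpa. mhc1zka had 5.13, 4.50 and 4.30 CPM in mvp-sham and 0.269, 0.132 and 0.309 CPM in WT-sham (4.30). mhc1zea had 0.769, 0.657 and 0.601 CPM in mvp-sham and 5.85, 5.67 and 6.95 CPM in WT-sham (-3.18). Because near-identical MHC genes share reads and differ between haplotypes, which of them is expressed and how much are uncertain from these counts.

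Macrophage genes were mostly higher in mvp-sham. Of 13 tested, 9 rose and 1 fell, and the summed level of the list was 348 to 358 CPM in mvp-sham and 159 to 178 CPM in WT-sham. mrc1b, a mannose receptor, had 29.8, 24.1 and 25.2 CPM in mvp-sham and 5.69, 5.80 and 6.90 CPM in WT-sham (log2 fold change 2.1). marco, a scavenger receptor, had 20.6, 17 and 20.5 CPM in mvp-sham and 4.89, 6.11 and 4.79 CPM in WT-sham (1.88), and c1qa, a complement component made by macrophages, had 31.2, 33.5 and 35.1 CPM against 13.5, 15.2 and 12.5 CPM in WT-sham (1.28). The receptor csf1ra had 8.56, 7.63 and 7.59 CPM in mvp-sham and 4.24, 4.09 and 4.22 CPM in WT-sham (0.92), while cd68 had 67.3, 61.8 and 65.7 CPM in mvp-sham and 62.7, 66.3 and 61.8 CPM in WT-sham and was not called (0.03; edgeR adjusted p = 0.934). The single fall, of timd4 at -0.76, was lost without mvp-sham replicate 1 or 3. In bulk tissue, more cells of a type and more RNA per cell cannot be told apart, here or for the other cell types. The sums for neutrophils (570.2 to 581 CPM in mvp-sham and 437 to 552 CPM in WT-sham) and for T, NK and B cells (45.8 to 53.3 CPM in mvp-sham and 26.2 to 27.6 CPM in WT-sham) were also higher in mvp-sham, although 1 of 7 neutrophil genes rose and 1 fell and 5 of 15 lymphocyte genes rose and 2 fell.

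Complement and coagulation genes had 16 of 28 tested members higher in mvp-sham and 6 lower, and the median of 1.45 was 1.36 when genes at the floor were set to their bound. It was 0.52 over 51 genes with no filter on low counts. Within the list, 11 of 16 complement genes rose and 2 fell, while among 12 coagulation genes 5 rose and 4 fell. cfp (properdin), which stabilises the alternative pathway, had 47.2, 47.2 and 41.4 CPM in mvp-sham and 5.42, 5.67 and 5.46 CPM in WT-sham (log2 fold change 3.03). c3a.4, a C3 gene, had 6.36, 4.70 and 4.76 CPM in mvp-sham and 0.322, 0.264 and 0.257 CPM in WT-sham (4.21). f3b, tissue factor, which starts clotting, had 512, 539 and 523 CPM in mvp-sham and 38.7, 40.9 and 35.0 CPM in WT-sham (3.78). The endothelial factors moved down: f8 had 33.7, 35.8 and 31.5 CPM in mvp-sham and 192, 192 and 187 CPM in WT-sham (-2.50), and vwf had 64.0, 58.1 and 64.7 CPM against 182, 148 and 192 CPM in WT-sham (-1.48).

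The thrombocyte and erythroid lists were higher in mvp-sham hearts, though not in every member. Of 10 thrombocyte genes 8 rose and 0 fell, and the list summed to 753 to 797 CPM in mvp-sham and 206 to 219.7 CPM in WT-sham, a sum carried by fn1 (ENSDARG00000006526) with 677, 649 and 637 CPM in mvp-sham and 156, 146 and 163 CPM in WT-sham. The fibronectin gene is not specific to thrombocytes. The more specific itga2b had 17.5, 14.1 and 18.5 CPM in mvp-sham and 8.75, 9.93 and 9.06 CPM in WT-sham (log2 fold change 0.85). For gp1bb the log2 fold change was 0.63, a call lost without WT-sham replicate 3 (edgeR adjusted p = 0.0507). A larger rise was that of thbs1 (ENSDARG00000103775), thrombospondin, whose specificity to thrombocytes was not examined, with 23.9, 22.7 and 21.6 CPM in mvp-sham against 2.90, 2.94 and 2.88 CPM in WT-sham (2.96). Of 14 erythroid genes 8 rose and 0 fell, with sums of 769.5 to 786 CPM in mvp-sham and 415 to 495 CPM in WT-sham. Tested against a 1.5-fold change, 2 erythroid and 5 thrombocyte genes were higher. alas2, the first enzyme of haem synthesis in red cells, had 70.9, 75.3 and 75.6 CPM in mvp-sham and 35.0, 34.3 and 36.7 CPM in WT-sham (1.07). Globin itself was less clear, since hbaa1 had 151, 158 and 157 CPM in mvp-sham and 117, 134 and 91.6 CPM in WT-sham (0.44) and was not called (edgeR adjusted p = 0.168). In a fit of the 6 sham libraries alone hbaa1 was called (edgeR adjusted p = 0.000607). hbaa2 was not called, with log2 fold changes of -0.16 to 0.11 when 1 library was left out.

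Among endothelial and endocardial genes 18 of 32 tested rose and 6 fell, 12 and 2 by at least 2-fold. The lowest log2 fold change of the list was -1.48, and the endothelial factor vwf, given above, fell by as much. flt1, a Vegf receptor, had 113, 108 and 107 CPM in mvp-sham and 16.7, 14.9 and 17 CPM in WT-sham (log2 fold change 2.75, SE 0.13; edgeR adjusted p = 1.67e-09). klf2b had 32.1, 36.5 and 33.9 CPM in mvp-sham and 4.51, 4.88 and 6.64 CPM in WT-sham (2.68), and klf2a had 133, 137 and 137 CPM against 38.4, 46.4 and 38.1 CPM in WT-sham (1.73); both encode transcription factors that respond to flow. The Vegf receptor kdrl had 105, 101 and 102 CPM in mvp-sham and 54.6, 57.1 and 52.6 CPM in WT-sham (0.91). cdh5, the cadherin of endothelial junctions, had a log2 fold change of 0.10 and was not called (edgeR adjusted p = 0.46). kdr was not called either, with log2 fold changes of -0.26 to -0.07 when 1 library was left out. The list summed to 2544 to 2626 CPM in mvp-sham and 1620 to 1712 CPM in WT-sham.

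Of 27 epicardial and fibroblast genes 14 rose and 4 fell, and the sums were 2462 to 2509 CPM in mvp-sham and 1324 to 1405 CPM in WT-sham. sema3d had 20.8, 21.5 and 20.6 CPM in mvp-sham and 3.44, 3.60 and 4.58 CPM in WT-sham (log2 fold change 2.44), and cxcl12, a chemokine, had 18.7, 18.7 and 18.5 CPM against 3.87, 4.39 and 3.71 CPM in WT-sham (2.22). The epicardial factor tcf21 had 11, 14 and 14.8 CPM in mvp-sham and 3.92, 4.52 and 3.71 CPM in WT-sham (1.71). tbx18, another epicardial factor, had 11.6, 12.1 and 14.2 CPM in mvp-sham and 15.8, 18.7 and 16.8 CPM in WT-sham (-0.44; edgeR adjusted p = 0.0468), a call lost with the replicate block (0.0566) and without any of 5 sham libraries (0.0628 to 0.154). The number of epicardial genes lower in mvp-sham was 2 instead of 4 without WT-sham replicate 2, mvp-sham replicate 1 or mvp-sham replicate 2.

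Smooth muscle genes rose in 11 of 17 cases and fell in 1, with sums of 418 to 431 CPM in mvp-sham and 196 to 202 CPM in WT-sham. tagln (ENSDARG00000033466), transgelin, had 126, 129 and 126 CPM in mvp-sham and 42.2, 38.0 and 36.7 CPM in WT-sham (log2 fold change 1.71). rgs5b, a marker of mural cells, had 23.4, 25.3 and 26.8 CPM in mvp-sham and 3.49, 4.48 and 3.60 CPM in WT-sham (2.70), and cnn1 (ENSDARG00000102398), calponin, had 3.90, 2.98 and 3.89 CPM against 0.376, 0.264 and 0.309 CPM in WT-sham (3.50). Genes of the actin cytoskeleton shared this direction, as 33 of 52 rose and 3 fell, 1 instead of 3 without mvp-sham replicate 3. coro1c (ENSDARG00000021193), which binds actin filaments, had 781, 757 and 702 CPM in mvp-sham and 214, 219 and 212 CPM in WT-sham (1.80), and actb1 had 346, 369 and 379 CPM against 129.6, 125 and 111 CPM in WT-sham (1.58).

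Genes of heart muscle were divided. Of 34 sarcomere genes 13 rose and 8 fell, with 11 of 21 thin filament and Z disc genes up but 2 of 13 thick filament genes. The alpha-actin gene acta1 (ENSDARG00000036371) had 2621, 2734 and 2815 CPM in mvp-sham and 298, 306 and 273 CPM in WT-sham (log2 fold change 3.22), and xirp1 (ENSDARG00000030722), an actin-binding protein of intercalated discs, had 1325, 1285 and 1189 CPM against 254, 251 and 231 CPM in WT-sham (2.37). In the opposite direction, lmod2 (ENSDARG00000045634), which elongates thin filaments, had 56.6, 57.6 and 53.6 CPM in mvp-sham and 287, 257 and 284 CPM in WT-sham (-2.30), and myh7ba, a myosin heavy chain, had 107, 109 and 98.6 CPM against 312, 326 and 319 CPM in WT-sham (-1.60). nppb, a natriuretic peptide released under wall stress, had 956, 912 and 949.9 CPM in mvp-sham and 71.1, 76.3 and 64.7 CPM in WT-sham (3.73), with 725, 954 and 1025 CPM in WT-7dpa. pkp2, plakophilin of the desmosome, had 55.6, 55.7 and 53.2 CPM in mvp-sham and 5.53, 4.79 and 5.25 CPM in WT-sham (3.40).

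The labelled tissue was checked against chamber markers. Of 8 atrial genes tested 3 rose and 2 fell, with a median log2 fold change of 0.03. The list summed to 3279 to 3599 CPM in mvp-sham and 1747 to 1793 CPM in WT-sham. The sum was carried by myh6 (ENSDARG00000079564), a symbol that other genes share. ENSDARG00000079564 had 2564, 2552 and 2328 CPM in mvp-sham and 942, 910.3 and 915 CPM in WT-sham (log2 fold change 1.43). In WT-7dpa this gene had 7446, 3701 and 3685 CPM, with replicate 1 highest. Other genes of that symbol did not rise alike. ENSDARG00000090637 was called lower (-0.24), a call lost without mvp-sham replicate 3 (edgeR adjusted p = 0.0616), and ENSDARG00000114031 was not called. Which gene of this symbol is the atrial myosin was not examined, so the rise of the list's sum is not read as atrial. The ventricular list had 5 entries, of which 2 matched no gene, and 3 genes were tested. It was lower in mvp-sham, at 50.2 to 53.9 CPM against 83.4 to 88.5 CPM in WT-sham. Its irx1 (ENSDARG00000101831) had 34.2, 34.7 and 37.7 CPM in mvp-sham and 55.4, 57.4 and 55.5 CPM in WT-sham (-0.66). irx1 made up most of the ventricular sum, so no abundant myosin entered that sum. The sums of the atrial and ventricular lists are therefore not to be set against each other. Of 25 cardiac transcription factors 3 rose and 11 fell, 5 rather than 3 rising without WT-7dpa replicate 1 in the fit or from the 6 sham libraries alone. Liver genes were near absent, with 15 of 19 at or under 3 counts in all 6 libraries, but the few present summed to 78.6 to 85.4 CPM in mvp-sham and 28.9 to 31.7 CPM in WT-sham. The skeletal muscle list summed to 12951 to 14036 CPM in mvp-sham and 8960 to 9689 CPM in WT-sham. Of its 7 tested genes 2 rose and 1 fell, and acta1 (ENSDARG00000036371), described above, averaged 2723 CPM in mvp-sham and 292 CPM in WT-sham. The summed marker lists of endothelium, epicardium, blood and macrophages were higher in mvp-sham along with the gene groups above. Not every marker rose, since cdh5, kdr and hbaa1 were not called and vwf and tbx18 fell. The part of these cell types in those results was not tested.

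All 13 protein genes of the mitochondrial genome, which encode core subunits of the respiratory chain, fell in mvp-sham, each by less than 2-fold. The list had 0 of 13 genes up and a median log2 fold change of -0.73. As given above, 2 of the WT-7dpa libraries had shares of mitochondrial counts near those of mvp-sham, at 10.8 and 10.7%. mt-nd4 had 3624, 3702 and 3548 CPM in mvp-sham and 7002, 7161 and 6918 CPM in WT-sham (-0.96, SE 0.10; edgeR adjusted p = 4.36e-06), and mt-nd2 had 1011, 1008 and 993 CPM against 1844, 1998 and 1782 CPM in WT-sham (-0.90). The smallest change was -0.36, for mt-co1. No mvp-sham library overlapped the WT-sham range for mt-nd4 or mt-nd2. The 96 nuclear genes of the same complexes did not share this direction: 10 rose and 8 fell, with a median of -0.01. Mitochondrial ribosomal proteins (11 of 75 up, 13 down) and the citric acid cycle (2 of 24 up, 6 down) lay near the middle as well.

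The Bcl2 family sets whether a stressed cell survives or undergoes apoptosis. Of the Bcl2 family and other cell death genes, 7 of 12 anti-apoptotic members rose and 1 fell, while 10 of 32 pro-apoptotic members rose and 10 fell. Higher were 58.3% of anti-apoptotic and 31.25% of pro-apoptotic members, and lower 8.33% and 31.25%, beside 25.3% and 24.2% of all genes tested. By at least 2-fold, 4 anti-apoptotic members rose and 1 fell, while 6 pro-apoptotic members rose and 3 fell. Log2 fold changes of pro-apoptotic members ran from -2.81 to 4.60. The lowest was bbc3, the pro-apoptotic Puma. It had 0.769, 0.606 and 1.2 CPM in mvp-sham, against 5.64, 6.54 and 6.13 CPM in WT-sham.

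Genes whose mammalian proteins have been reported to bind Mvp or act with it gave 7 of 18 up and 2 down. That was 50.0% called, beside 49.5% of all genes, and 16.7% by at least 2-fold, beside 22.1% of all genes. hif1aa, an oxygen-regulated transcription factor, had 19.4, 20.3 and 21.1 CPM in mvp-sham and 62.9, 63.2 and 63.0 CPM in WT-sham (log2 fold change -1.64). xrcc5, the Ku80 subunit of DNA end joining, had 11.9, 12.8 and 11.2 CPM in mvp-sham and 6.39, 5.40 and 5.87 CPM in WT-sham (1.02), and the ubiquitin ligase gene cop1 had 7.95, 9.09 and 8.09 CPM against 13.1, 16.3 and 14 CPM in WT-sham (-0.79). Of 9 multidrug transporters tested 4 rose and 0 fell. abcb4, a P-glycoprotein relative, had 45.8, 46.9 and 48.4 CPM in mvp-sham and 14.9, 14.8 and 11.6 CPM in WT-sham (1.77). Of 57 nuclear pore and transport genes 22 rose and 10 fell, but only 2 and 0 by at least 2-fold.

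Amino acid carriers were higher in 13 of 26 cases and lower in 4. slc43a1 (ENSDARG00000037393), a carrier of large neutral amino acids, had 438, 400.1 and 416 CPM in mvp-sham and 78.4, 70.6 and 89.3 CPM in WT-sham (log2 fold change 2.40). slc3a2, the heavy chain shared by several such carriers, had 166, 178 and 174 CPM in mvp-sham and 51.0, 56.3 and 49.5 CPM in WT-sham (1.72). slc7a7, which pairs with it and is also a macrophage marker, had 4.15, 4.80 and 4.58 CPM in mvp-sham and 0.752, 0.483 and 0.463 CPM in WT-sham (3.0). The number lower was 2 instead of 4 without WT-sham replicate 3 or any mvp-sham replicate and 7 without WT-7dpa replicate 1. The list's median of 0.68 was 0.45 without WT-sham replicate 2 and 0.37 without mvp-sham replicate 2. It was 0.26 with no filter on low counts and 0.19 with at least 10 counts required in every library. Of 23 aminoacyl-tRNA synthetases 13 rose and 0 fell, 2 of them by at least 2-fold.

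The lists of protein breakdown differed among themselves. Of 36 autophagy genes 3 rose and 16 fell, although the number lower was 9 without WT-sham replicate 1 and 10 without mvp-sham replicate 1. nbr1a, an autophagy receptor, had 11, 11.2 and 10.4 CPM in mvp-sham and 30.7, 28.6 and 30.6 CPM in WT-sham (log2 fold change -1.46). Of 17 ubiquitin ligases of muscle 3 rose and 10 fell. fbxo32, a ligase of muscle atrophy, had 35.0, 33.0 and 32.9 CPM in mvp-sham and 91.5, 87.7 and 85.6 CPM in WT-sham (-1.39). trim63a, another, had 481, 506 and 498 CPM in mvp-sham and 1057, 1138 and 898 CPM in WT-sham (-1.06). The proteasome had 10 of 57 genes up and 7 down, and the lysosome 29 of 84 up and 8 down.

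Of 91 cell cycle genes 4 rose (4.40%) and 21 fell (23.1%) in mvp-sham, with a median of -0.20. Over all genes tested 25.3% rose and 24.2% fell, so the share of falls was near that of all genes. Interferon-induced genes gave 4 of 42 up and 7 down. Chemokine genes gave 19 of 49 up and 6 down, hypoxia targets 18 of 31 and 3, glycolysis 18 of 39 and 8, fatty acid oxidation 10 of 42 and 14, and collagens 10 of 31 and 1. The unfolded protein response and ER folding had 17 of 44 up and 10 down with a median of 0.00. Among signalling families, Wnt had 11 of 47 up and 11 down, 23.4% each and near the shares of all genes. Notch had 7 of 24 up and 8 down, Tgf-beta and Bmp 22 of 66 and 12, and the Il6 family with Jak-Stat 10 of 24 and 1. Of 9 tested markers of neurons and glia 3 rose and 2 fell, 1 instead of 2 falling without WT-sham replicate 3, and the median of 0.09 lay between -0.09 without WT-sham replicate 2 and 0.19 without mvp-sham replicate 3. The myelin genes split, with mpz at 6.10, 6.26 and 6.11 CPM in mvp-sham and 1.18, 1.01 and 1.34 CPM in WT-sham (log2 fold change 2.39) and mbpa at 0.615, 0.556 and 0.416 CPM against 2.74, 2.68 and 3.40 CPM in WT-sham (-2.47).

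Since an engineered deletion is inherited together with the chromosome around it, the neighbours of mvp were looked at by gene order, which was known only from an annotation of another build. Of 20 tested, 10 were called (50.0%), 4 higher and 6 lower, beside 49.5% of all genes. By at least 2-fold, 7 of the 20 were called, beside 22.1% of all genes. natd1 was the highest (log2 fold change 2.09), followed by atxn2l (1.30) and nme3 (1.05). spsb3 was the lowest (-2.56), followed by sgf29 (-1.25), cramp1 (-1.15) and znf652 (-1.02), of which znf652 lost its call without mvp-sham replicate 3 (edgeR adjusted p = 0.0637).

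At 7 dpa the genotypes were compared again in other hearts, so that these libraries share none with the sham comparison. mvp averaged 18 CPM in mvp-7dpa, a log2 fold change of -3.10 (SE 0.12; edgeR adjusted p = 6.82e-09). In all, 3246 genes (19.5%) were called, 1484 (8.94%) higher and 1762 (10.6%) lower in mvp-7dpa. This number rested on WT-7dpa replicate 1, since 5959 genes were called without it. Of the 2017 genes at least 2-fold higher in mvp-sham, 476 (23.6%) were also higher and 123 (6.10%) lower in mvp-7dpa, and their median log2 fold change was 0.21 at 7 dpa beside 1.73 after sham surgery. Of the 1650 at least 2-fold lower, 304 (18.4%) were also lower and 70 (4.24%) higher, and their median was -0.29 at 7 dpa beside -1.57 after sham surgery. The difference between the genotype effects (7 dpa minus sham) was itself called for 5819 genes (35.0%), among them 1599 (79.3%) of the genes higher and 1011 (61.3%) of those lower by at least 2-fold after sham surgery. Because these sets were chosen by their sham difference, which enters the test, smaller differences at 7 dpa are partly built into the choice.

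Single genes carried over to different degrees. atf3, at 7.46 after sham surgery, had a log2 fold change of 0.84 at 7 dpa, and hspa1b, at 7.11, one of 0.80. fkbp5 had 4.82 after sham surgery and 2.19 at 7 dpa, klf9 had 3.60 and 2.66, and nr1d2a had 2.87 and 2.27, with nr1d2a averaging 191 CPM in mvp-7dpa and 39.8 CPM in WT-7dpa. znf326 and cnnm1 were lower in mvp-sham but had log2 fold changes of 0.85 and 2.18 at 7 dpa. myrfl was the single gene shut in mvp-7dpa, at a mean of 0.0549 CPM against 8.08 CPM in WT-7dpa, and had 8.31, 5.96 and 6.43 CPM in mvp-sham and 17.7, 21.7 and 21.2 CPM in WT-sham (-1.55). znf1179 had log2 fold changes of -1.42 after sham surgery and -4.67 at 7 dpa. Over the lists, the median of immediate early genes was 0.27 at 7 dpa beside 1.87 after sham surgery, that of macrophages -0.66 beside 1.35, and that of the 13 mitochondrial genes -0.05 beside -0.73. Erythroid genes had a median of 1.12 beside 0.62, and cell cycle genes -1.13 beside -0.20.

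**Figure D5:**
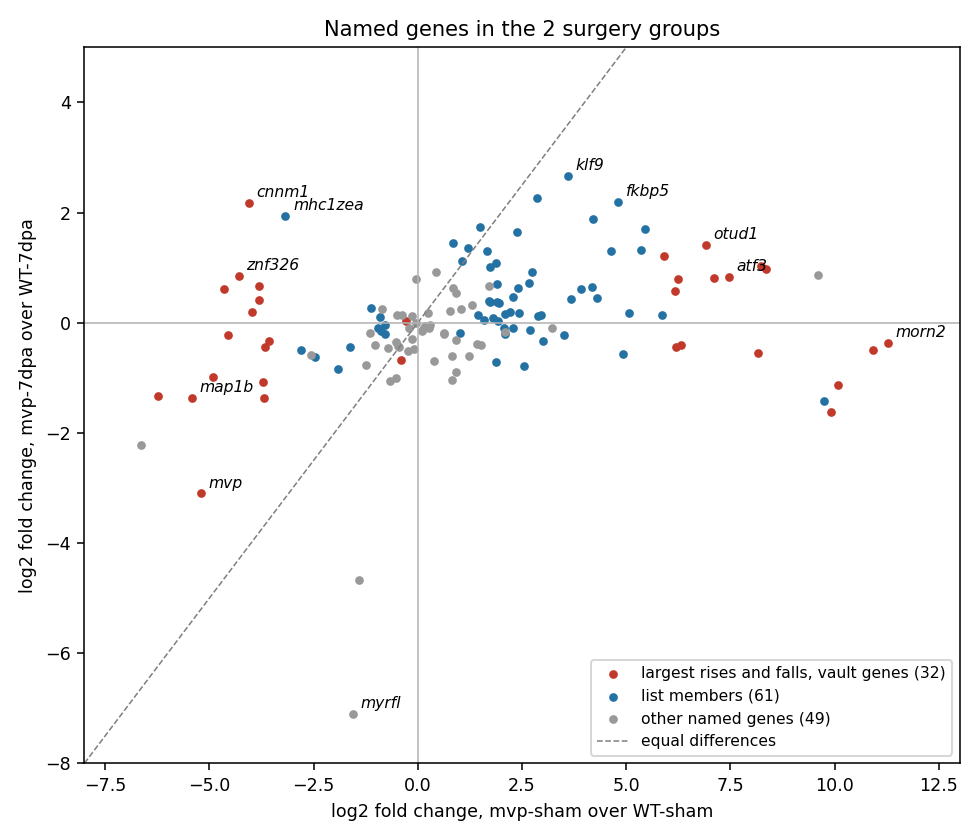
Log2 fold change between genotypes after sham surgery (mvp-sham over WT-sham, horizontal axis) and at 7 dpa (mvp-7dpa over WT-7dpa, vertical axis) for 142 named genes, 1 point per gene, with colours for how they came to be named and a dashed line where both would be equal. mvp lies low on both axes (-5.20 and -3.10), whereas atf3 at 7.46 and 0.84 lies far below the dashed line. Points beyond 8 on the horizontal axis are genes near the floor in WT-sham, whose fitted values are no measure of size.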

How the data were processed

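RNA-seq was done on 12 libraries of adult zebrafish ventricles, 3 for each of 4 groups. Per the paper's methods and the submitters' processing notes, the authors made the deposited counts of reads per gene with bcl2fastq, FastQC 0.11.8, HISAT2 2.1.0 on GRCz11, SAMtools 1.10 and featureCounts 1.6.0. The counts are whole numbers with no normalization. The annotation release, the strand setting and the treatment of reads shared between genes are not given in the sources used here, so antisense and near-identical genes are uncertain. Groups came from the sample labels.

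The 32520 gene IDs were matched to symbols (29201 matched and 6314 shared theirs with another gene, in which case the Ensembl ID is given on first use). The tools were edgeR 4.0.16 and limma 3.58.1 in R 4.3.3. Genes were filtered with filterByExpr, libraries were scaled by TMM (factors 0.854 to 1.19), and edgeR's quasi-likelihood test was run on 1 fit of all 12 libraries, each group having its own mean. The contrasts were mvp-sham minus WT-sham, mvp-7dpa minus WT-7dpa and their difference. A gene was called at a Benjamini-Hochberg adjusted p under 0.05 over 16604 genes. The procedure was also run on simulated data in which few genes changed. That run does not cover a comparison in which 49.5% of genes are called. CPM are TMM-scaled. A fold against a group at or under 3 counts in every library is a bound against 3 counts per library. An exact two-sided permutation test of 3 against 3 cannot go below p = 0.1 and was not used. Alternatives were DESeq2 1.42.0 (size factors, or its own test), other filters, a test against a 1.5-fold change, fewer libraries, no abundant genes and a replicate block.

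Named by rule were the vault genes, the 15 largest rises and falls (at least 5 CPM, a symbol, groups that did not overlap), up to 4 called members with the largest change (at least 1 CPM) of each of 19 lists taken in depth, the neighbours of mvp, the first 2 entries of cell type lists and the 5 genes called alike at both times in each direction. Not every gene that the rule names is given values in the text. Other genes were chosen after their values were seen. The members and the lists were chosen with earlier results of these data known. Of 1529 list entries 109 matched no gene, and wrong matches were removed by name. No coordinates or shares by chromosome are given, since the gene order came from GRCz12tu, another build. Certain results are not reported here.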

Additional observations from a re-analysis of the deposited data

Results flagged for a closer look

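The genotype effect differed between surgery groups, by the test of the difference itself (7 dpa minus sham on the log2 scale, Benjamini-Hochberg adjusted, from edgeR's quasi-likelihood test), for 29 of the 32 vault genes and genes of largest change and for 77 of the other 110 named genes. Over all 16604 genes tested it was called for 5819 (35.0%). Most named genes were chosen for a large sham difference, which itself enters the test, so a smaller difference at 7 dpa is partly built into the choice. Fitted values of genes at the floor in WT-sham depend on the prior count and are no measure of size.

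Among the rises, the difference was -11.64 for morn2, -11.42 for mhc2dgb, -11.20 for mhc2dga, -8.71 for mhc2dhb, -11.55 for f13a1, -7.38 for lipg, -7.21 for cbarp, -6.73 for notum2, -6.63 for itga2.3 and -5.60 for cremb, genes at or near the floor in WT-sham. It was -6.63 for atf3, -6.31 for hspa1b, -5.49 for otud1, -5.44 for ankrd1 and -4.69 for nr4a3. In each of these the log2 fold change was lower at 7 dpa than after sham surgery.

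Among the falls, the difference was 2.1 for mvp, 4.91 for cdh29, 4.06 for map1b, 5.25 for klhl41, 4.34 for dhx32, 5.14 for znf326, 6.24 for cnnm1 and 4.18 for rflnb. It was 4.49 for c7b, 4.22 for crym, 2.64 for efcab11, 2.33 for znf1124, 3.23 for ky and 3.25 for basp1. At 7 dpa mvp, cdh29 and znf1124 were still called lower in mvp-7dpa, with smaller differences, whereas znf326, cnnm1 and c7b were called higher in mvp-7dpa. The other falls were not called at 7 dpa. Dixon's criterion for an outlying sample was not applied, since groups held 3 libraries.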

How the results depend on the processing

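The sham comparison gave 4153 genes higher and 4057 lower in mvp-sham with DESeq2 size factors, and 4069 and 3882 with DESeq2's own test. Fitting the 6 sham libraries alone gave 4596 higher and 4685 lower of 15097 genes tested, a larger share than in the main fit. At least 2-fold, 1191 genes were higher and 949 lower when at least 10 counts were required in every library, a filter that tested 12910 genes and drops genes absent in a group. Tested against a 1.5-fold change, 1974 were higher and 1596 lower. Leaving out 1 library at a time gave 3682 to 5046 higher and 3435 to 5058 lower, or 1905 to 2170 and 1580 to 1873 by at least 2-fold. The upper ends were without WT-7dpa replicate 1, an alternative chosen after seeing the data for this comparison. At 7 dpa, 1403 genes were called from the 6 libraries of that time alone, and leave-one-out counts ran from 1911 to 5959, with 1911, 2066 and 2017 without mvp-7dpa replicates 1, 2 and 3 and 5959 without WT-7dpa replicate 1. The difference between genotype effects was called for 4820 to 8516 genes.

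Same-numbered libraries did not deviate together (correlations of -0.05 to 0.06), and differently numbered ones spanned a like range (-0.06 to 0.05). Replicates within most groups differed little, so this check cannot exclude a pairing or shared batch. The main fit used no pairing. With the replicate block, 4140 genes were higher and 3921 lower in mvp-sham (2012 and 1631 by at least 2-fold), 2959 were called at 7 dpa and 5521 for the difference, and tbx18 was the only named gene to lose its call. Of 142 genes named by rule and tested, 116 kept call and direction in every setting that tested them (99 genes entered with at least 10 counts in every library, and 137 from the sham libraries alone or without the most abundant genes). None of the 142 reversed. Genes named after their values were seen were not followed through the alternatives.

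Depth limits genes of a few counts: those near the floor, the class II genes among them, have bounds rather than folds. Which reads the near-identical genes took, the hour of sampling and the makeup of the tissue were not recorded in the sources used here, and 3 libraries of 1 line per genotype cannot tell the deletion from other differences between the stocks.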

Other observations

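Some further genes, chosen after their values were seen, differed in mvp-sham hearts and were not described above. spry4, an inhibitor of Fgf and other receptor kinase signals, averaged 302 CPM in mvp-sham and 38.4 CPM in WT-sham (log2 fold change 2.98). rps12 averaged 243 CPM in mvp-sham and 42.2 CPM in WT-sham (2.52), although the family of cytosolic ribosomal proteins had a median of -0.02 and 4 members up and 4 down of 84 tested. tcap, a Z disc protein, averaged 3424 CPM in mvp-sham and 1142 CPM in WT-sham (1.58). hapln1a, a hyaluronan link protein, had a log2 fold change of 2.77 and tbx5b, a T-box transcription factor gene, one of -2.42.

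The skin and gill list summed to 1484 to 1573 CPM in mvp-sham and 1070 to 1156 CPM in WT-sham, and the germ and yolk list to 10.1 to 10.8 CPM in mvp-sham and 9.05 to 11.3 CPM in WT-sham. The neuron and glia list overlapped between groups, at 30.0 to 35.5 CPM in mvp-sham and 28.4 to 33.1 CPM in WT-sham.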
